A study of Mus musculus with 4 samples.

Results

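Nodal and activins are secreted ligands of the TGF-beta family, and the 9 genes described here encode ligands of this branch (Nodal, Gdf3, and the activin subunits Inhba and Inhbb), a co-receptor (Tdgf1), a receptor (Acvr2b) and secreted antagonists (Lefty1, Lefty2 and Fst). They were taken by name, and all 9 were measured, with 16 of the 45101 probe sets. They stand for 9 of 18193 genes. Total RNA was taken from epiblast-like tissue at day 3 (2 samples) and from mouse embryonic stem (ES) cells at day 0 (2 samples) of an SFEBq culture, in which ES cells quickly form floating aggregates in serum-free medium. Each sample was read on 1 array, and the labels name no further treatment, no genotype and no ES cell line. One label field calls all 4 samples differentiated, while their descriptions call the day 0 samples ES cells. Because nothing says that the duplicates came from different cultures, each p-value covers the spread of these samples alone, and that spread may be technical. Culture form and time changed together and cannot be told apart.

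Nodal, Gdf3 and activins are dimers that bind a type II receptor such as the product of Acvr2b, which then activates a type I receptor. The activated receptor phosphorylates Smad2 and Smad3, which join Smad4 and act on target genes with partners such as Foxh1. Nodal and Gdf3 need the co-receptor Cripto, the product of Tdgf1, while activins do not. Nodal, Lefty1 and Lefty2 are themselves targets of the pathway, and the Lefty proteins block Nodal, which forms a negative feedback loop. In the mouse embryo the pathway keeps the epiblast undifferentiated, patterns its anterior-posterior axis and induces mesendoderm.

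Of the 9 genes, 6 fell at day 3 (Nodal, Gdf3, Inhbb, Tdgf1, Lefty1 and Lefty2), 2 rose (Acvr2b and Fst), and Inhba did not pass the test (limma, Benjamini-Hochberg adjusted p under 0.05). Over all genes 21.4% were called lower and 20.9% higher, 42.3% in either direction, and the median log2 difference was 0.01, against -1.30 over the members. The day 3 arrays did not overlap with the day 0 arrays for any of the 9, as was the case for 69.0% of all genes. Levels are log2 values made comparable between arrays by the authors' RMA processing, differences are day 3 minus day 0, and levels of different probe sets cannot be set against each other. In such bulk samples fewer cells of a type and less RNA per cell cannot be told apart.

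**Figure D1:**
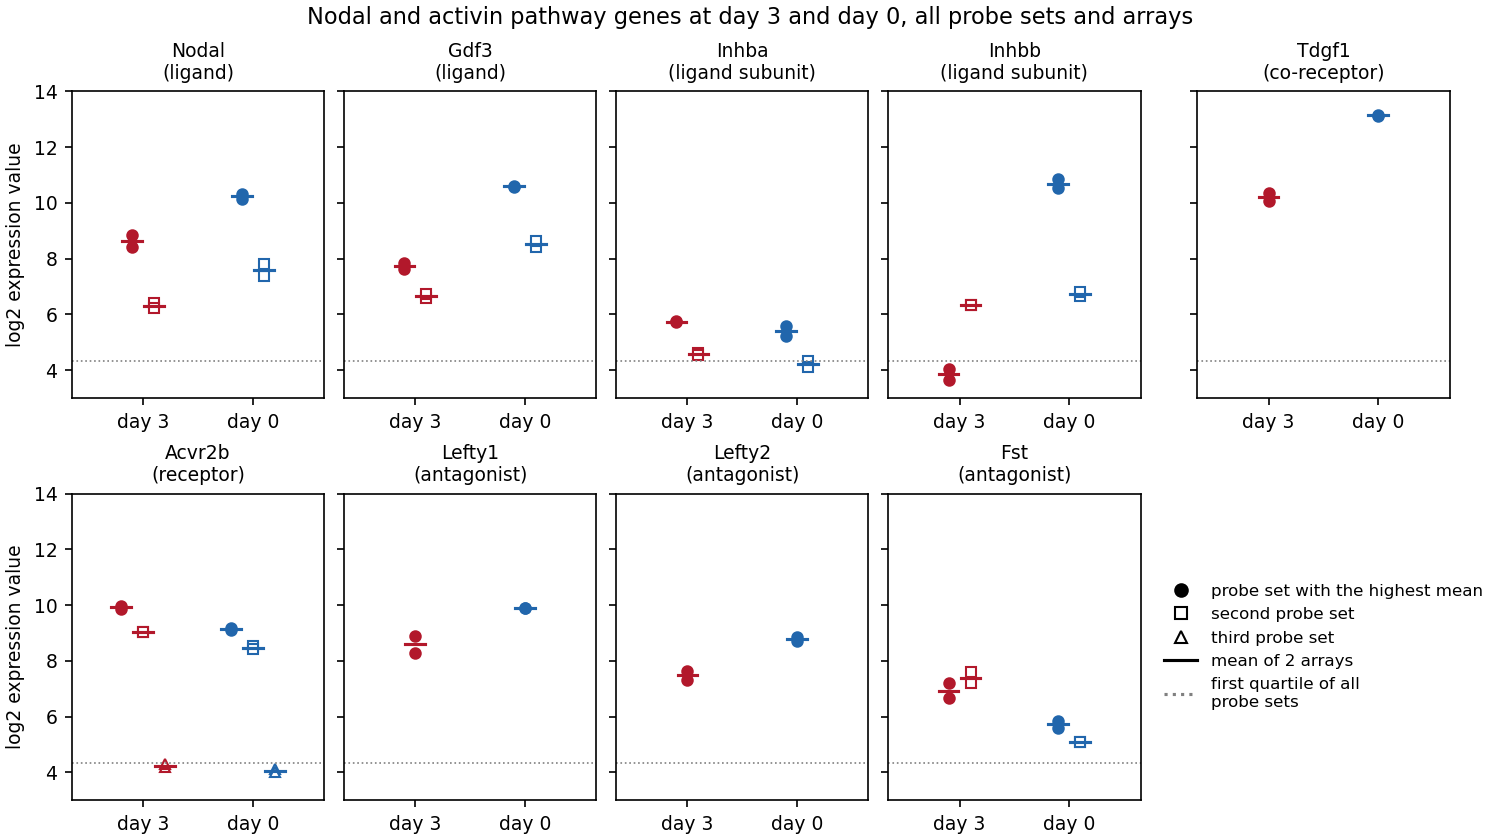
Log2 expression values of the 9 genes on the vertical axis, with each of the 4 arrays as a point, day 3 left of day 0 in each panel, short lines at the means of 2 arrays, and a separate symbol for each probe set of a gene. The first quartile of all probe sets is dotted; the representative Inhbb probe set lies above 10 at day 0 and below the dotted line at day 3.

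The ligand gene Nodal had log2 levels of 8.83 and 8.40 in the day 3 samples, against 10.32 and 10.14 in the day 0 samples. Its mean was 8.62 ± 0.30 at day 3 and 10.23 ± 0.13 at day 0 (SD, n = 2 each), a difference of -1.61 ± 0.12 (SE, limma adjusted p = 1.95e-06), or 3.06-fold lower. The second Nodal probe set was at 6.39 and 6.22 at day 3 and at 7.36 and 7.82 at day 0. Both probe sets were lower on both day 3 arrays, the second by 1.29 ± 0.15 on the log2 scale (SE, adjusted p = 1.26e-04 over all probe sets). The differences of the 2 probe sets were 0.33 apart (95% interval -0.12 to 0.78), which did not pass the test (limma adjusted p = 0.30 over all pairs), but did when day 0 replicate 2 was dropped (0.65, adjusted p = 0.0088). Dropping any other array gave an adjusted p of 0.20 to 0.97.

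Gdf3 encodes a ligand that can pair with Nodal and signal through the same receptors. Its log2 levels were 7.62 and 7.83 at day 3, against 10.57 and 10.62 at day 0, and the difference was -2.87 ± 0.09 (SE, limma adjusted p = 2.64e-09), or 7.29-fold lower. A second probe set had 6.57 and 6.73 at day 3, against 8.41 and 8.64 at day 0. Its difference was smaller, at -1.88 ± 0.11, and the 0.99 between the probe sets was larger than the replicate spread (limma adjusted p = 5.01e-04). Only Inhbb and Tdgf1 of the 9 genes fell more than Gdf3 by the representative probe sets.

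Inhbb encodes the chain of activin B, and its representative probe set was at 3.66 and 4.04 in the day 3 samples, against 10.52 and 10.85 in the day 0 samples. The mean was 3.85 ± 0.28 at day 3 and 10.69 ± 0.23 at day 0 (SD, n = 2 each), a difference of -6.84 ± 0.15 (SE, limma adjusted p = 2.80e-10). Both day 3 levels lay below the arrays' first quartile (4.32 to 4.33) and were not separated from background, so the size is a bound. With every level below that quartile set to it, a choice made after the data were seen, this probe set was at least 82.1-fold lower (log2 difference -6.36). Read by it, Inhbb ranked 1 of 18193 genes by size of fall. The other Inhbb probe set showed a far smaller difference. It had 6.32 and 6.34 at day 3, against 6.66 and 6.80 at day 0, a difference of -0.40 ± 0.11 (SE, adjusted p = 0.023 over all probe sets). This call was lost when day 0 replicate 2 (-0.33, adjusted p = 0.11), day 3 replicate 1 (-0.39, 0.13) or day 3 replicate 2 (-0.41, 0.11) was dropped.

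The differences of the 2 Inhbb probe sets were 6.44 apart as measured (95% interval 6.05 to 6.83, limma adjusted p = 1.92e-07) and 5.96 with the day 3 level set to the first quartile. As measured it ranked 1 of 16752 pairs of probe sets of 1 gene, of which 20.6% were called. Within each array, the second probe set minus the representative one was 2.66 and 2.29 at day 3, against -3.87 and -4.05 at day 0. Both arrays of a day thus gave close values, and the days were far apart. From the mean of both probe sets the gene's difference was -3.62, still called, so the size of the fall in Inhbb rests on the probe set read.

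Inhba encodes the chain of activin A. It had log2 levels of 5.72 and 5.75 at day 3, against 5.58 and 5.23 at day 0, and the difference of 0.33 (95% interval 0.015 to 0.64) did not pass the test (limma adjusted p = 0.090). The second probe set stood near the first quartile, with 4.59 and 4.54 at day 3, against 4.31 and 4.11 at day 0, and its difference of 0.36 was not called either (adjusted p = 0.069 over all probe sets), but was without the intensity trend (0.049). All 4 values of day 3 were above those of day 0 within their probe set. The gene was called when day 0 replicate 1 was dropped (0.51, adjusted p = 0.011), with an adjusted p of up to 0.49 when any other array was. It was also called when both probe sets were averaged (0.34, adjusted p = 0.043). The probe sets of Inhba differed by 0.03 in their differences (95% interval -0.36 to 0.41).

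The promoters of the activin subunit genes are shown for their base composition. By its representative probe set Inhbb fell to a level not separated from background, and Inhba was not called. RefSeq windows (build GRCm38.p6) were found for 5 of the 9 genes, Nodal, Inhba, Inhbb, Tdgf1 and Acvr2b, and the 250 bases before the start were read. That of Inhbb is chr1:119422249-119422498 on the minus strand and that of Inhba chr13:16011601-16011850 on the plus strand, each given 5′ to 3′ with CpG dinucleotides in capitals.
Inhbb: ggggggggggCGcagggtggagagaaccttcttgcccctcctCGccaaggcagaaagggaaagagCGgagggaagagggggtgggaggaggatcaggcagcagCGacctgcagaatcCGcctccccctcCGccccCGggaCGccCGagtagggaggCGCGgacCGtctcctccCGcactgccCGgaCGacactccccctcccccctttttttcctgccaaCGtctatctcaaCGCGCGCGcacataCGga
Inhba: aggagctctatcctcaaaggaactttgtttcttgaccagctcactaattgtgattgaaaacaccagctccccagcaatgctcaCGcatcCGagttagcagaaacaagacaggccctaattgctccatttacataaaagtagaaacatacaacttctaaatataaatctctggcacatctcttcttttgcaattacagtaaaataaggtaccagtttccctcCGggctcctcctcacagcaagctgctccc
The Inhbb window held 21 CpG dinucleotides and 68.0% G or C, and the Inhba window 3 and 43.2%. The median of all 32851 windows was 6 CpG dinucleotides and 52.4% G or C. Acvr2b, which rose, had the most CpG dinucleotides of the 5 windows with 24, while Nodal and Tdgf1, which fell, had 3 and 7.

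**Figure D2:**
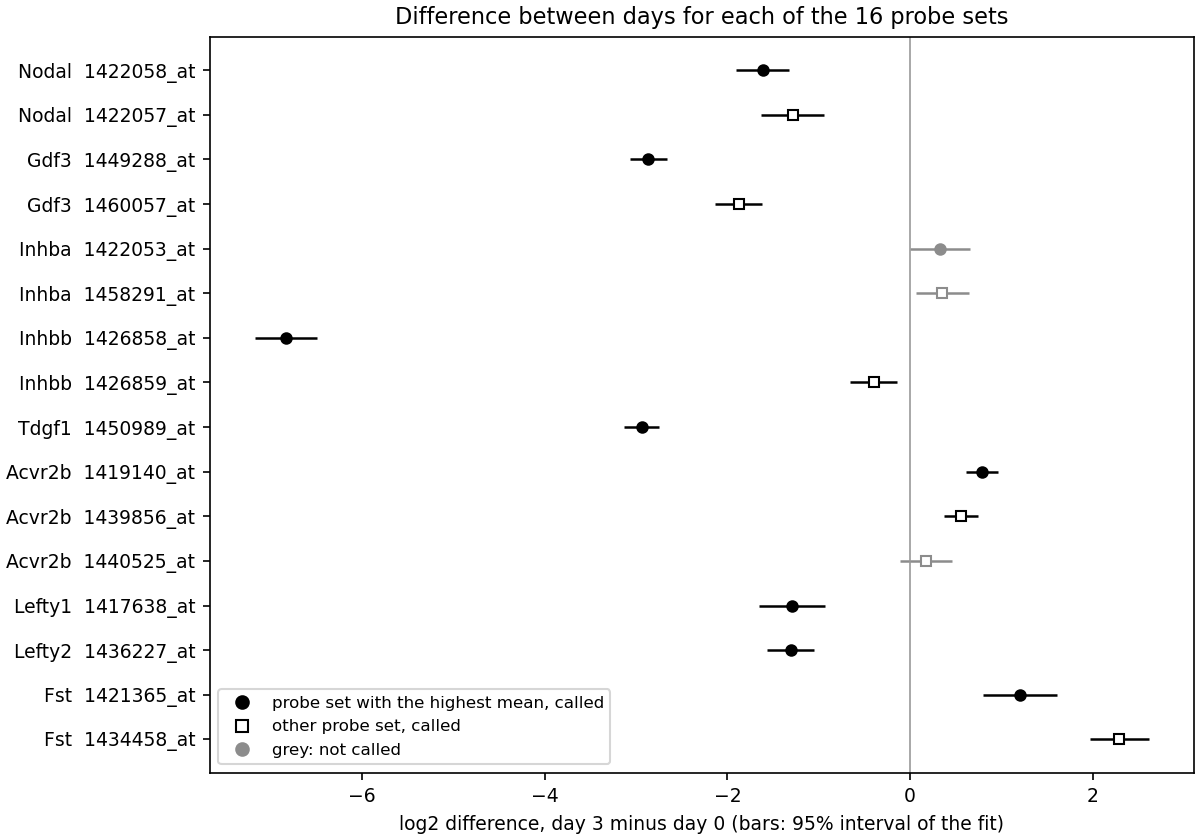
Log2 difference of day 3 minus day 0 on the horizontal axis for each of the 16 probe sets, with bars for the 95% interval of the limma fit over all probe sets. Filled circles are the representative probe sets, open squares the others, and grey marks those not called; the 2 Inhbb probe sets lie at -6.84 and -0.40.

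Tdgf1, the gene of the co-receptor Cripto, had 1 probe set. Its log2 levels were 10.33 and 10.05 in the day 3 samples, against 13.11 and 13.15 in the day 0 samples. The mean was 10.19 ± 0.20 at day 3 and 13.13 ± 0.03 at day 0 (SD, n = 2 each), a difference of -2.94 ± 0.08 (SE, limma adjusted p = 1.73e-09), or 7.68-fold lower. It ranked 64 among 18193 genes by size of fall. The RefSeq table lists 2 pseudogenes of it, Tdgf1-ps1 and Tdgf1-ps2, which could share probes, and this was not tested.

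The Tdgf1 promoter is shown because it holds the same GC-rich box more than once. The window is chr9:110946159-110946408 on the minus strand, 5′ to 3′, and capitals mark the letters GGGCGTGG, the box bound by KLF and SP factors.
Tdgf1: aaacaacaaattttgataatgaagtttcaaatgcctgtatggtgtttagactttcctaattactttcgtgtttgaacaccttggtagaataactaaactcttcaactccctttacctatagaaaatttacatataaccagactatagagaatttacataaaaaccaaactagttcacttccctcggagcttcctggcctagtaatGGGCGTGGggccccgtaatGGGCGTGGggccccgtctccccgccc
The letters occurred 2 times, starting 45 and 26 bases before the start of the gene. They lay within 2 overlapping copies of a run of 21 bases, which began at -50 and -31. The letters GGGCGTGG were found in 0 of the other 4 members' windows and in 4.79% of all windows. The octamer ATGCAAAT (1.60% of all windows), the FOXH1 letters TGTGNATT (3.18%) and the SMAD letters CAGACA (17.1%) were found in 0 of the 5 windows. Both strands were searched, the letters GGGCGTGG were chosen after the sequences were seen, and such letters are not shown to be sites.

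Acvr2b, which encodes a type II receptor for activins and Nodal, rose. Its log2 levels were 9.97 and 9.86 at day 3, against 9.09 and 9.17 at day 0, which differ by 0.78 ± 0.07 (SE, limma adjusted p = 1.02e-05), or 1.72-fold higher. A second probe set had 9.02 and 9.03 at day 3, against 8.52 and 8.41 at day 0, and rose by 0.56. The third lay below the first quartile on all 4 arrays (4.18 and 4.29 at day 3, 4.11 and 3.997 at day 0) and was not called (difference 0.18, adjusted p = 0.36). Its difference was 0.61 lower than that of the first (limma adjusted p = 0.025), a call lost without day 0 replicate 1 (0.067) or day 3 replicate 1 (0.16). The first and second probe sets were 0.22 apart (95% interval -0.04 to 0.48), which was not called.

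Both Lefty genes fell by close amounts. Lefty1 had log2 levels of 8.90 and 8.29 at day 3, against 9.90 and 9.88 at day 0, and a difference of -1.29 ± 0.15 (SE, limma adjusted p = 5.73e-05), or 2.45-fold lower. Lefty2 had 7.62 and 7.33 at day 3, against 8.85 and 8.70 at day 0, and a difference of -1.30 ± 0.11 (adjusted p = 4.14e-06), or 2.47-fold lower. The day 3 arrays of Lefty1 were 0.62 apart, a gap reached by 0.335% of all genes on that day. Both genes lie on chromosome 1 and are close copies of each other. Each had 1 probe set, and whether the probe sets read both genes was not tested.

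Fst encodes follistatin, which binds activins and keeps them from their receptors, and it rose while Inhbb and the Lefty genes fell. Its representative probe set had log2 levels of 6.65 and 7.19 at day 3, against 5.57 and 5.86 at day 0, and a difference of 1.21 ± 0.17 (SE, limma adjusted p = 2.26e-04), or 2.31-fold higher. The other had 7.20 and 7.59 at day 3, against 5.09 and 5.10 at day 0, a rise of 2.29 on the log2 scale or 4.91-fold. The second rose by 1.09 more (95% interval 0.71 to 1.47, limma adjusted p = 0.0017). No array of day 3 overlapped with day 0 in either probe set.

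Over all 16 probe sets, 13 were called, against 30.9% of the 45037 probe sets tested, and 0 of the 16 in the unmoderated test. Of 7 pairs of probe sets of 1 member, 4 were called, those of Inhbb, Fst, Gdf3 and the third Acvr2b probe set, against 20.6% of all pairs. The last of these rests on a probe set below the first quartile on all 4 arrays, whose levels were not separated from background. Probe sets of 1 gene went the same way in all 7 pairs. In the plot of differences by probe set, the spread within Inhbb is wider than the whole range of the other 8 genes.

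**Figure D3:**
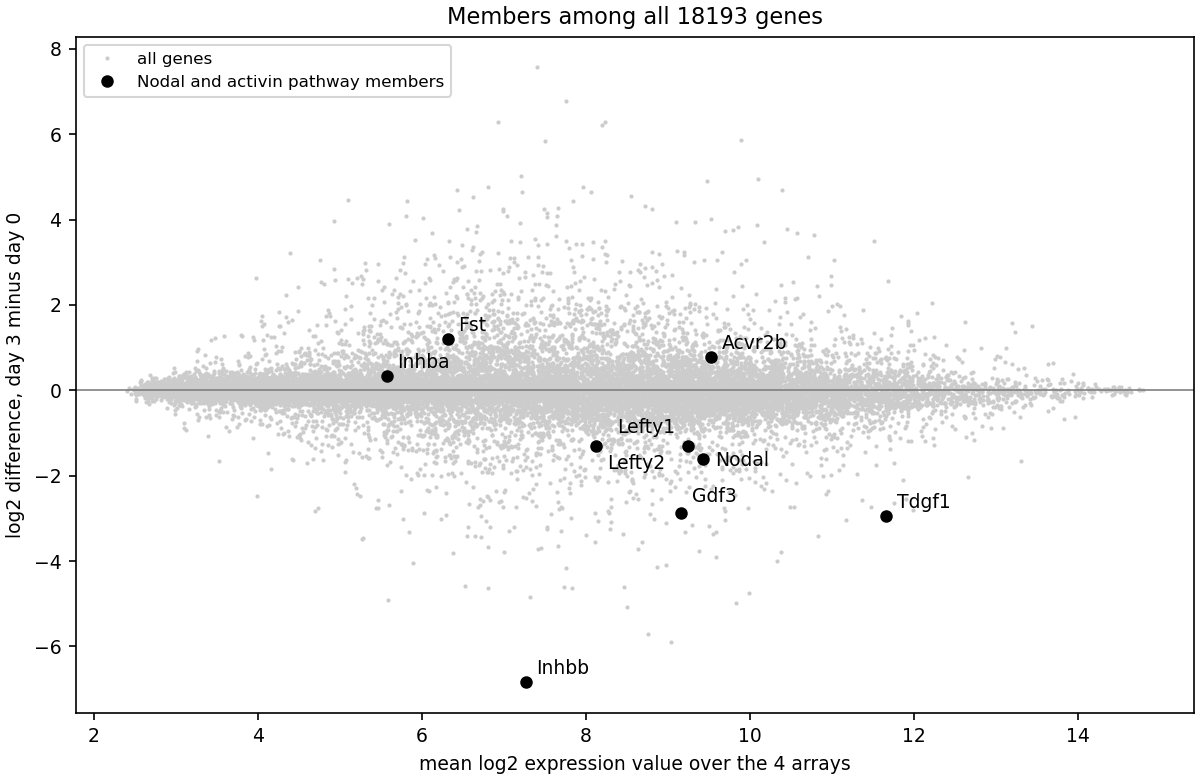
Mean log2 expression value over the 4 arrays (horizontal) against the log2 difference of day 3 minus day 0 (vertical) for 18193 genes in grey and the 9 members in black, each by its representative probe set. Inhbb is the lowest point of all genes, and Fst, Acvr2b and Inhba lie above 0.

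By profile over the 4 arrays, measured as the Euclidean distance between log2 deviations from each gene's own mean, the genes most like Nodal were Txnip (0.03), Smad7 (0.08) and 3110040M04Rik (0.12). Their differences were -1.63 each. Nearest to Tdgf1 were Smad6 (0.14), Cnpy1 (0.15) and Kank4 (0.16), and nearest to Inhbb were Socs3 (1.02), Stra8 (1.17) and Calcoco2 (1.84). With 2 conditions this likeness is little more than an equal difference and equal gaps between duplicates.

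Of 49 other genes of the pathway, 45 were measured, and 22 rose, 6 fell and 17 did not pass the test. For this count and those by role below, the shares over all genes were 20.9% called higher and 21.4% lower. The median log2 difference of the measured pathway genes was 0.26, against 0.01 over all genes. Pathway genes that were not measured were not analysed here.

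None of the 7 other ligand genes and subunits was called by limma at an adjusted p under 0.05, nor at an unadjusted p under 0.05. Their differences ran from -0.22 for Inha, the inhibin chain, to 0.24 for Tgfb3, with Inhbe at 0.22 and Inhbc at -0.18. The day means of these named genes ran from 4.44 to 5.52, below the array medians of 5.78 to 5.79. At such dim levels the lack of a call does not show that a gene was expressed and unchanged. The enzymes that cut ligand precursors split, since Furin rose by 0.99 ± 0.10 (SE) and Pcsk6 fell by 1.43 ± 0.09. Pcsk6 encodes PACE4, which with furin cleaves pro-Nodal, and its log2 levels were 7.40 and 7.50 at day 3, against 8.96 and 8.81 at day 0. Cfc1, the gene of a co-receptor related to Cripto, rose by 0.71 ± 0.10, while the convertase gene Pcsk5 differed by -0.01 and was not called. Pcsk5 was also dim, with means of 5.03 at day 3 and 5.04 at day 0.

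Of 6 other receptor genes 5 rose and Acvr1c, with means of 5.68 at day 3 and 5.53 at day 0, did not pass the test. Tgfbr3, which encodes the betaglycan co-receptor, rose most, with 9.18 and 9.29 at day 3, against 6.45 and 6.48 at day 0, a difference of 2.76 ± 0.09 (SE, limma adjusted p = 4.51e-09). The other Tgfbr3 probe set, at 0.15, was not called. Tgfbr2 (0.57), Tgfbr1 (0.54), Acvr2a (0.37) and Acvr1b (0.27) rose less, and in each only 1 probe set was called. When all probe sets were averaged, Tgfbr1 (0.19), Tgfbr2 (0.18) and Acvr1b (0.13) were not called. Leaving out 1 array also took the call from Tgfbr2 (without day 3 replicate 2, 0.31), from Acvr2a (0.25, 0.38 and 0.36 without day 0 replicate 2, day 3 replicate 1 and day 3 replicate 2) and from Acvr1b (0.17, 0.25 and 0.30 without day 0 replicate 1, day 3 replicate 1 and day 3 replicate 2). Acvr1b was also not called without the intensity trend (adjusted p = 0.070).

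Among other antagonists, Bambi, a decoy receptor gene, rose by 0.51 ± 0.09 (SE, limma adjusted p = 0.0011), and Tmeff1, whose product can bind Cripto, by 0.26 ± 0.06. Of the 2 Tmeff1 probe sets (0.26 and 0.31) 1 was called. Fstl3, related to Fst, fell by 0.44 ± 0.12 (adjusted p = 0.014). The Fstl3 call was lost without day 0 replicate 2 (-0.35) or day 3 replicate 2 (-0.37), and that of Tmeff1 without day 3 replicate 1 (0.22). Dand5 differed by 0.36 and was not called, but was when day 0 replicate 2 was dropped (0.65, adjusted p = 0.0019). Dropping any other array gave an adjusted p of 0.28 to 0.75. Cer1, an antagonist gene of the anterior visceral endoderm, differed by 0.12 with its representative probe set, which was not called, and by 0.67 with its other one, which was.

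Of 15 Smad genes and nuclear partners 7 rose, 3 fell and 5 did not pass the test. Smad7, an inhibitory Smad gene that the pathway induces, fell most, with log2 levels of 8.98 and 8.66 at day 3, against 10.53 and 10.37 at day 0, a difference of -1.63 ± 0.11 (SE, limma adjusted p = 5.04e-07). Skil, which encodes the co-repressor SnoN, rose most, with 11.93 and 11.74 at day 3, against 10.40 and 10.32 at day 0, a difference of 1.47 ± 0.07. Both probe sets of each of these genes were called in the same direction. Zfyve9, encoding the adaptor SARA (0.66), Smad3 (0.58), Smad4 (0.57), Smurf2 (0.54), Trim33 (0.52) and Foxh1 (0.49) rose, and Smad2 (-0.31) and Ski (-0.31) fell. Of the 2 Ski probe sets (-0.31 and -0.29) 1 was called. Of 3 probe sets each, 2 were called for Smurf2, Foxh1 and Trim33, and those of Trim33 ran from -0.31, not called, to 0.91. For Smad3, 1 of 3 probe sets was called, and the mean of the 3 had a difference of 0.22 that was not called.

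Of 8 measured target genes named from studies of the embryo, 6 rose, 1 fell and Gsc did not pass the test. Gsc lay below the first quartile on 3 of the 4 arrays. Lhx1 (3.86 ± 0.18, SE), Eomes (2.46 ± 0.10) and Foxa2 (2.45 ± 0.09), transcription factor genes of mesendoderm and visceral endoderm, rose most. Fgf8, a growth factor gene of the streak, rose by 1.55 ± 0.20, Sox17 by 1.03 and Mixl1 by 0.44, the last without a call when day 0 replicate 2 (0.38) or day 3 replicate 1 (0.26) was left out. Pmepa1, which encodes a feedback inhibitor that binds Smad2 and Smad3, fell by 1.37 ± 0.09. Its log2 levels were 8.28 and 8.13 at day 3, against 9.48 and 9.66 at day 0. The differences of its 3 probe sets ran from -1.37 to -0.49, and 2 of them were called.

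**Figure D4:**
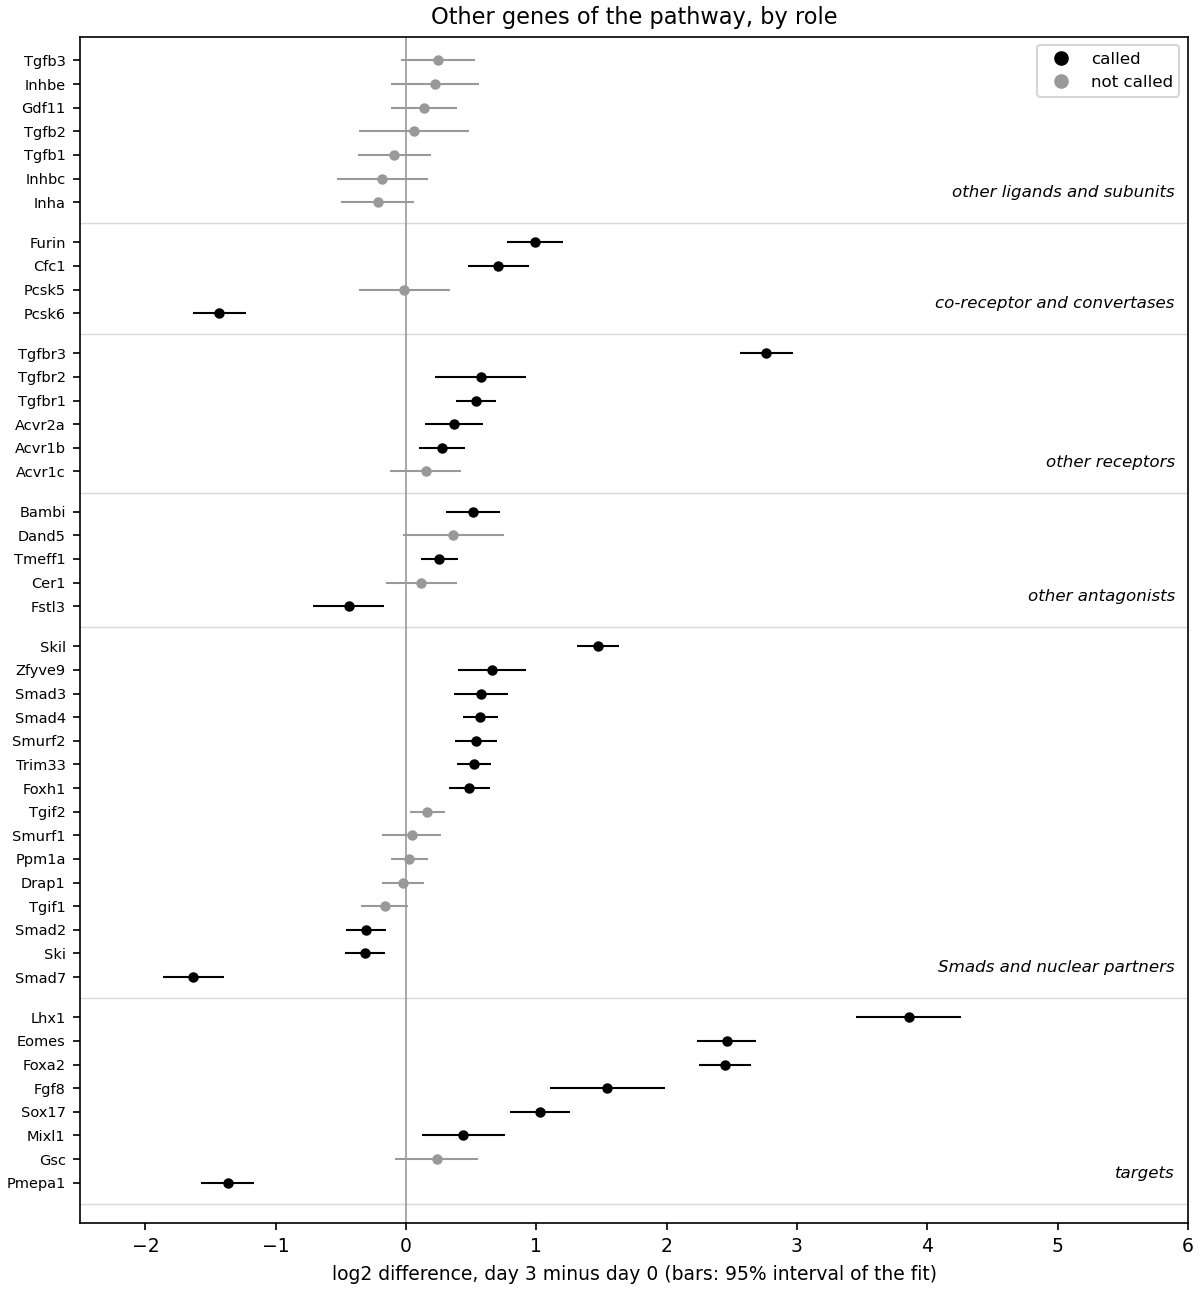
Log2 difference of day 3 minus day 0 on the horizontal axis for the 45 other pathway genes, grouped by role, with bars for the 95% interval of the limma fit. Black points were called and grey ones were not; Smad7, Pcsk6 and Pmepa1 lie farthest to the left, and Lhx1 farthest to the right.

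Markers of the labelled cell states were read beside these values, with 20.9% of all genes called higher and 21.4% lower. All 8 markers of naive pluripotency fell, Prdm14 (-4.84), Klf4 (-3.80) and Tfcp2l1 (-3.33) most. Of the Tfcp2l1 probe sets 1 of 3 was called (-3.33 to -0.02), and of those of Tbx3 3 of 5 (-3.19 to 0.34). All 5 epiblast markers rose, Fgf5 (7.57), Sox3 (4.25) and Pou3f1 (3.87) most. Both day 0 levels of Fgf5 (3.49 and 3.74) lay below the first quartile, so its size is a bound. The other Fgf5 probe set rose by 2.54, and the other Sox3 probe set, at 0.35, was not called. Of general pluripotency, Pou5f1 differed by 0.0027 and was not called and Sox2 fell by 0.64. Of 11 visceral endoderm markers 10 rose, Apob (6.79), Cubn (5.86) and Ttr (4.32) most, and Gata6 was not called. The other Apob probe set rose by 1.09, and Afp, Hnf4a, Gata4 and Sox7 also had probe sets that were not called. The mean log2 level of the 11 visceral endoderm markers was 9.86 and 9.95 at day 3, against 6.91 and 6.85 at day 0. Visceral endoderm also expresses Nodal pathway genes, among them Lhx1, Eomes, Foxa2, Sox17 and Cer1, and its part in the differences above was not tested.

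The mean log2 level of 7 fibroblast markers, which would mark feeder cells, was 5.31 and 5.23 at day 3, against 4.75 and 4.79 at day 0. Thy1 (1.82), Dcn (0.96) and Col1a2 (0.49) rose, the last without a call when day 3 replicate 2 was left out (0.47), 4 were not called, and Col3a1, Lum and Postn lay below the first quartile on all 4 arrays. Over all genes 42.3% were called in either direction. Of the probe sets of Dcn 1 of 2 was called, and of those of Col1a2 1 of 3. Their lowest differences were 0.07 and 0.01. Fibroblasts express Fst and Inhba, and the part of such cells in the rise of Fst was not tested. Of 7 trophoblast markers Krt18 (2.95) and Krt8 (2.07) rose, Gata3 (-0.75) and Cdx2 fell, and 3 were not called. By their representative probe sets Elf5 and Tpbpa lay below the first quartile on all 4 arrays. The other Elf5 probe set (0.38) was called higher, and the other Cdx2 probe set (-0.12) was not called. Without day 0 replicate 1, day 3 replicate 1 or day 3 replicate 2 the call of Gata3 was lost (-0.35, -0.90 and -0.61). The mean trophoblast level was 6.90 and 6.81 at day 3, against 6.47 and 6.18 at day 0. The median log2 difference of the 7 trophoblast markers was -0.08.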

How the data were processed

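RNA of 4 samples (day 3 and day 0, n = 2 each) was measured on Affymetrix arrays. The authors deposited log2 values, 1 per probe set and array, made with RMA and R 2.13.0 per the submitters' processing notes. RMA subtracts background, gives all arrays 1 distribution and condenses each probe set to 1 value, so a change in total RNA per cell cannot be seen and differences of dim probe sets are compressed. The genome build and further settings are not given in the sources used here. No detection calls were used.

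Of 45101 probe sets, 64 were controls and 34945 others had 1 gene symbol in the platform annotation. For each of 18193 genes the probe set of highest mean level was read. Differences were fitted with limma 3.58.1 in R 4.3.3 (lmFit, eBayes with an intensity trend), two-sided, without covariates, with 2 residual degrees of freedom to which the shared variance estimate added about 8.02. Benjamini-Hochberg adjustment ran over all genes, over 45037 probe sets or over 16752 pairs of probe sets of 1 gene, and a call needed an adjusted p under 0.05.

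Members and lists were chosen with earlier results of these data known. Named genes were all members, the 4 other pathway genes with the largest absolute difference in each role, the 3 genes nearest in profile to Nodal, Tdgf1 and Inhbb, the 3 markers with the largest absolute difference in each list, and Pou5f1. Acvr1b, Acvr1c, Cdx2, Cer1, Foxh1, Gata6, Gsc, Mixl1, Pmepa1, Ski, Smad2, Smad4, Smurf2, Sox17 and Trim33, and the markers below the first quartile, were added after their values were seen. So were Afp, Gata4, Hnf4a, Sox7 and Tbx3, named for probe sets that were not called. Promoter windows came from a RefSeq table of build GRCm38.p6. Alternatives changed the variance model (no trend, robust, unmoderated), the normalization (renewed quantile normalization, median centring), the filter (features above the median level), the probe sets (mean of a gene's probe sets, none matching several transcripts), the threshold (adjusted p under 0.01, treat with a minimum log2 difference of 1) and the samples (a replicate block, each array left out).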

Additional observations from a re-analysis of the deposited data

How the results depend on the processing

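Directions of the 9 members held in all alternatives computed, and so did the calls, with these exceptions. In the unmoderated test, which rests on 2 residual degrees of freedom, the adjusted p was 0.083 for Nodal (-1.61), 0.054 for Acvr2b (0.78), 0.14 for Lefty1 (-1.29), 0.072 for Lefty2 (-1.30) and 0.15 for Fst (1.21), so that 0 members were called higher and 3 lower. Adjusted over all probe sets, it called 0 of the members' 16 probe sets, with the lowest adjusted p at 0.055 for Inhbb. It also left uncalled the gaps between probe sets of Acvr2b (-0.61), Fst (1.09), Gdf3 (0.99) and Inhbb (6.44), and it called 7 and 2 other pathway genes and 1065 and 1084 genes of all, higher and lower. Treat called 0 members higher and 4 lower, 5 and 3 other pathway genes, and 664 and 472 genes of all. Only 1 of the members above the median level rose, Acvr2b, since Fst and Inhba were below it. With levels below the first quartile set to it, added after the data were seen, the difference of Inhbb was -6.36, smaller by construction. Inhba was called from the mean of its probe sets (0.34). With 1 array left out, Inhba ran from 0.15 to 0.51, the gap of the Nodal probe sets from 0.012 to 0.65, that of the third Acvr2b probe set from -0.72 to -0.50, and that of the Inhba probe sets from -0.054 to 0.11, turning negative without day 0 replicate 1 (-0.054) and day 3 replicate 1 (-0.014). Differences that were not called changed sign for Inhbc without day 3 replicate 1 (0.015; range with 1 array left out -0.38 to 0.015), for Pcsk5 without day 0 replicate 1 or day 3 replicate 1 (range -0.23 to 0.21) and from the mean of its probe sets (0.033), and for Pou5f1 by median centring (-0.0062) and without day 0 or day 3 replicate 2 (range -0.057 to 0.062). The cause of these changes was not tested.

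Equal replicate numbers were not taken as pairs, since no label says what they share, and the replicate differences of the days had a correlation of -0.017 across genes. With the replicate number as a block, 2 members were called higher and 6 lower, as without it, and 3789 and 3871 genes of all. Depth has no counterpart here, and 2 arrays per day limit the precision.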

Other observations

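The day 3 duplicates differed for some pathway genes by more than for most genes, whose median gap was 0.09 on the log2 scale on that day. Day 3 replicate 2 minus day 3 replicate 1 was -0.62 for Lefty1, -0.43 for Nodal, -0.29 for Lefty2 and -0.29 for Tdgf1, and -0.66 for Lhx1, -0.54 for Fgf8 and -0.32 for Smad7. A gap as large was found in 0.335% of all genes for Lefty1, 1.97% for Nodal, 8.09% for Lefty2 and 8.11% for Tdgf1. Fst (0.54), Inhbb (0.39) and Gdf3 (0.21) were higher in replicate 2. Large gaps were also found within day 0, where the median was 0.10. Replicate 2 minus replicate 1 was there 0.48 for Fgf8, -0.36 for Inhba, 0.32 for Inhbb, 0.29 for Fst, -0.18 for Nodal, -0.14 for Lefty2, 0.07 for Acvr2b, 0.05 for Gdf3, 0.04 for Tdgf1 and -0.02 for Lefty1. A gap as large was found in 2.37% of all genes for Fgf8, 6.14% for Inhba, 7.94% for Inhbb and 11.0% for Fst on that day. The genes were picked with these values in view, and with 2 arrays a day the gaps are values without a test.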
